A study of Bos taurus and Bos grunniens x Bos taurus and Bos grunniens with 18 samples.

Results

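The comparison described here sets the testis of the cattle-yak, the sterile male hybrid of cattle and yak, against the testis of the yak, across 14091 protein-coding genes of 19994. Transcript values were added up per gene, and a gene was tested where its FPKM (fragments per length of transcript and per mapped fragments of the library) was at least 1 in at least 3 of the 9 RNA-seq libraries. The remaining 5903 genes were not tested. The series holds 18 samples, of which 6 libraries, from 3 cattle-yaks and 3 yaks, form this comparison, and 3 libraries of cattle add to the estimate of the spread. All animals were 4 years old, came from the same cooperative and were castrated for the study, so replicates are separate animals. Testis tissue was washed and frozen in liquid nitrogen, and libraries were depleted of ribosomal RNA and kept strand. The labels give the hybrid as Bos grunniens x Bos taurus and do not say which species was the dam. Reads of all 3 groups were processed with UMD3.1, a cattle genome build, and the effect of that build on yak and hybrid values was not tested.

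Sperm form in the seminiferous tubule in a fixed order. Spermatogonia divide by mitosis, spermatocytes pair and exchange their chromosomes in meiosis, and spermatids then condense the nucleus with protamines, build the acrosome and grow a flagellum. Sertoli cells nurse the germ cells inside the tubule, and Leydig cells between the tubules make androgens. Male cattle-yaks are sterile, and in such hybrids germ cell development is known to stop around meiosis.

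The 3 cattle-yak libraries stood far from the 3 yak libraries. The first principal component of log2(FPKM + 1) over the tested genes held 95.5% of the variance, with cattle-yak at −91.35, −93.87 and −117.1 and yak at 118.5, 94.21 and 89.62. The outermost library was replicate 3 among the hybrids and replicate 1 among the yaks. Correlations across genes, which are not independent replicates, were 0.977 to 0.986 within cattle-yak, 0.983 to 0.990 within yak and 0.511 to 0.676 between them. No libraries held identical values. Summed FPKM lay between 408528 and 481551, and the number of reads behind the FPKM values is unknown.

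Markers of the labelled tissue were present in both groups. Summed levels of 5 spermatid markers (PRM1, TNP1, ACRV1, SPACA1 and AKAP4) were 48, 75.3 and 12.5 FPKM in cattle-yak, against 19979, 19276 and 18128 FPKM in yak. The sums of 5 spermatogonial markers (GFRA1, ZBTB16, UCHL1, DMRT1 and SALL4) were 220, 282 and 295 FPKM in cattle-yak, against 36, 58 and 64 FPKM in yak. Spermatocyte markers (SYCP1, SYCP3, DMC1, SPO11 and TEX101) summed to 222, 383 and 243 FPKM in cattle-yak, against 195, 194 and 212 FPKM in yak, with 1 cattle-yak library above the rest and the others close together. For 5 Sertoli cell markers (CLU, CLDN11, FATE1, AMH and WT1) the sums were 1913, 2083 and 2224 FPKM in cattle-yak, against 512, 698 and 697 FPKM in yak. For 4 Leydig cell markers (STAR, CYP17A1, INSL3 and LHCGR) they were 1441, 2080 and 1855 FPKM in cattle-yak, against 236, 550 and 540 FPKM in yak. All markers of spermatogonia, Sertoli and Leydig cells named here were higher in every cattle-yak library than in any yak library, and all those of spermatids were lower. GFRA1 was tested only through its cattle-yak values and ACRV1 only through its values in yak and cattle, so their separation partly follows from the filter. Separation without overlap was seen for 56.5% of all tested genes on the higher and 31.8% on the lower side. Endothelial, macrophage and lymphocyte markers were low, with sums of at most 15.9, 18.2 and 18.6 FPKM in any cattle-yak library and 5.93, 3.74 and 4.43 FPKM in any yak library. The red cell gene ALAS2 was listed at 0 in all 6 libraries and the globins HBA and HBB stayed under 1 FPKM. Of 4 markers of epididymis and rete testis, CRISP1 and PAX8 also stayed under 1 FPKM, KRT8 had 2.52, 4.41 and 3.53 FPKM in cattle-yak, against 0.663, 1.28 and 1.84 FPKM in yak, and EPCAM, which other epithelia and germ cells also express, made up most of a summed level of 131, 144 and 104 FPKM in cattle-yak, against 141, 130 and 142 FPKM in yak. In whole testis a smaller number of cells of a type and less RNA per cell cannot be told apart, and FPKM is a share of a library, so a level here is relative to all other transcripts of the same testis. The part that cell numbers have in the results below was not tested.

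Most genes differed between the hybrid and the yak. At an adjusted p under 0.05 (limma on log2(FPKM + 1), Benjamini-Hochberg over all genes tested), 12116 genes were called, which is 86.0%. Of all tested genes 7794 (55.3%) were higher and 4322 (30.7%) were lower in cattle-yak. A change of at least 1 on the log2 scale was called for 7895 genes (56.0%), 5029 of them higher and 2866 lower. The 2 directions differed in size. Higher genes rarely exceeded a log2 fold change of 3, which 27 genes reached, while 857 genes were lower by at least 3, 437 by at least 4 and 98 by at least 6. At least 10 FPKM in every yak library with under 1 FPKM in every cattle-yak library was seen for 243 genes, and the reverse for 4. The median log2 fold change over all tested genes was 0.54. It was 0.06 when libraries were scaled by median ratios, and the calls then split into 5945 higher and 5753 lower, so that 50.8% of calls were higher in place of 64.3%. The direction of small changes, of about 0.5 or less on the log2 scale, therefore depends on the scaling.

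**Figure D1:**
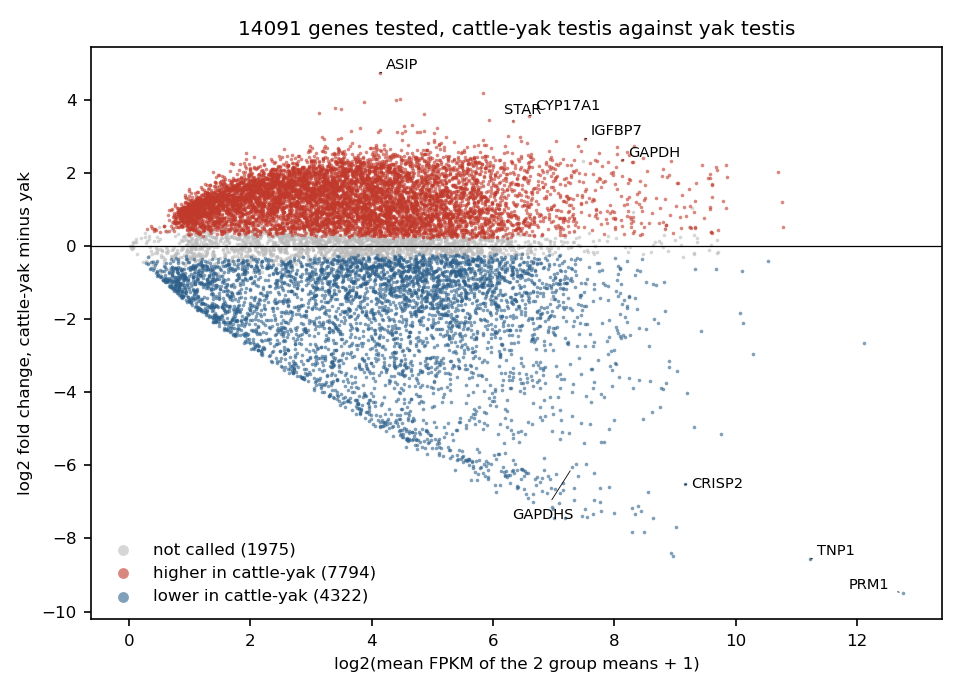
Each point is 1 of 14091 genes, with the log2 of the mean FPKM of the cattle-yak and yak group means plus 1 on the horizontal axis and the log2 fold change of cattle-yak minus yak on the vertical axis. Red points were higher in cattle-yak (7794), blue points lower (4322) and grey points not called (1975); the lower genes reach −9.49 at PRM1 and the higher genes 4.74 at ASIP.

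The called genes held most of the transcriptome. Genes called lower took 19.2, 17.8 and 15.1% of summed FPKM in the cattle-yak libraries, against 65.4, 61.1 and 59.4% in the yak libraries. Genes called higher took 67.1, 67.8 and 71.4% in cattle-yak, against 22.5, 27.0 and 28.1% in yak. Genes that were not called took 11.7 to 14.1% in any of the 6 libraries.

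Gene lists were then followed in the order of sperm formation. In each list the most abundant members and those called against most of their list are named, and other members were chosen as examples after their values were seen. Counts of calls are to be read against 55.3% higher and 30.7% lower, and medians against 0.54, over all genes tested. The plot of list members shows them all.

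**Figure D2:**
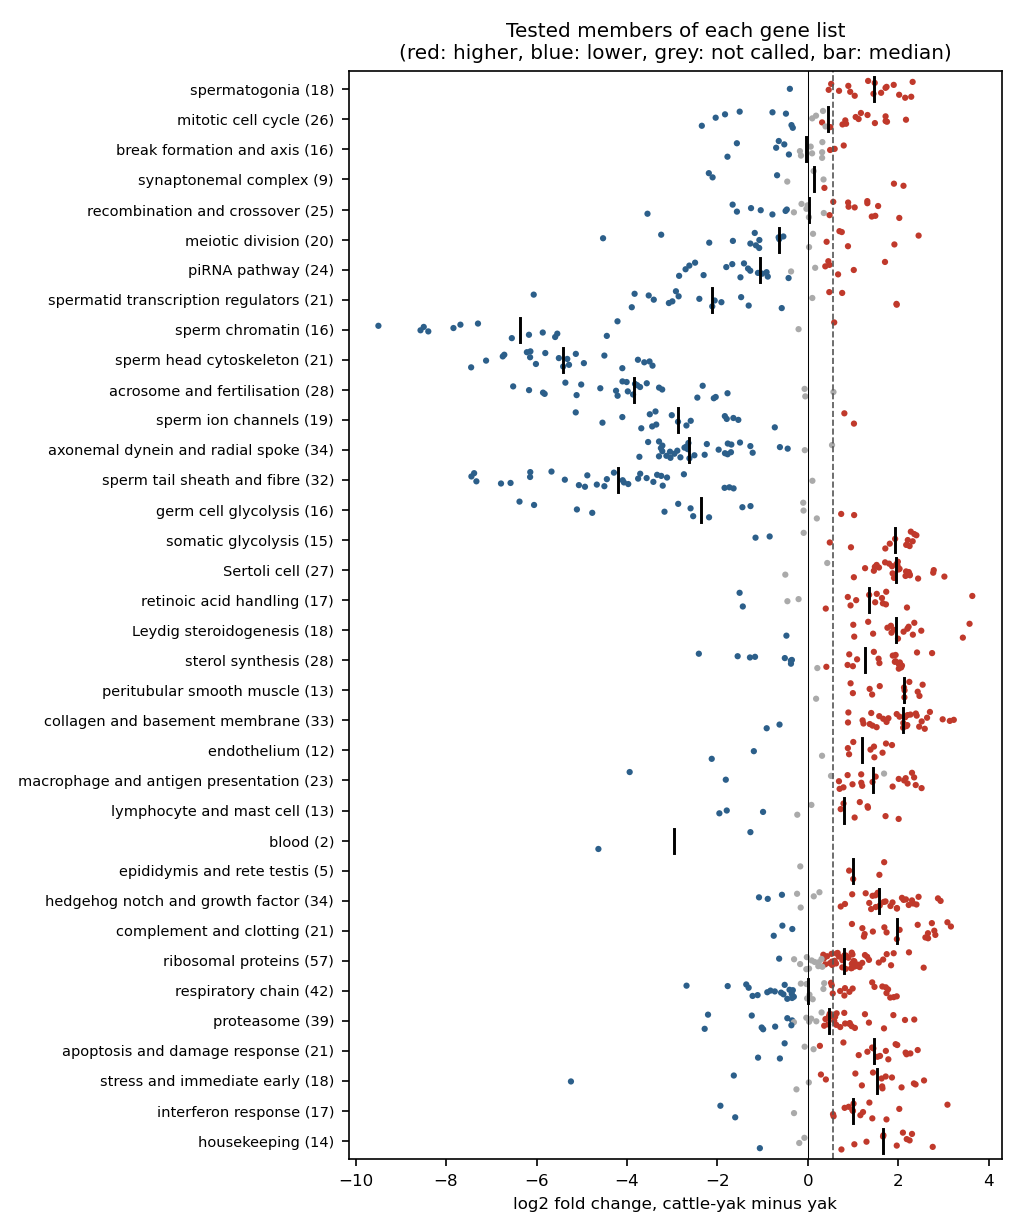
Each point is a tested member of a gene list, with its log2 fold change of cattle-yak minus yak on the horizontal axis and the list, with its number of tested members, on the vertical axis. Red is called higher, blue called lower and grey not called; black bars are list medians, the solid line is 0 and the dashed line is the median of all tested genes, 0.54. The medians of sperm structure lists lie left of 0, those of spermatogonia and of somatic cell lists other than blood right of it, and those of meiotic prophase lists around it.

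Genes of spermatogonia were higher in the hybrid. Of 18 tested members 17 were higher and 1 lower, with a median log2 fold change of 1.46, and 3 of them passed the filter on low values only through the cattle-yak libraries. DMRT1, a transcription factor that holds spermatogonia in mitosis, had 135, 175 and 167 FPKM in cattle-yak testes, against 24, 34.4 and 36.1 FPKM in yak testes, and the groups did not overlap. Its log2 fold change was 2.31 ± 0.17 (SE) (limma, adjusted p = 7.63e-07). DAZL, an RNA-binding protein of the germ line, had 139, 186 and 167 FPKM in cattle-yak, against 61.6, 64.2 and 66.4 FPKM in yak, and TKTL1, a transketolase-like protein, had 102, 151 and 131 FPKM in cattle-yak, against 25.6, 30.5 and 36.3 FPKM in yak. UCHL1, a deubiquitinase of early spermatogonia, had 67, 93.5 and 111 FPKM in cattle-yak testes, against 10.2, 20.5 and 24.9 FPKM in yak testes. In all of these every cattle-yak library lay above every yak library, and yak replicate 1 was the lowest of the 6. The stem cell regulators ZBTB16 and ETV5 were higher by 2.15 and 1.48, and KIT, the receptor of differentiating spermatogonia, by 1.72. STRA8, the retinoic acid target at meiotic entry, had 19.7, 29.3 and 21.1 FPKM in cattle-yak, against 9.14, 6.93 and 7.49 FPKM in yak. LIN28B, a repressor of let-7 miRNAs, was the member called lower, with 4.31, 3.15 and 4.29 FPKM in cattle-yak, against 5.64, 5.04 and 5.67 FPKM in yak. That call was lost, leaving 0 members lower, with libraries scaled to equal FPKM sums (limma, adjusted p = 0.122), and also when leaving out cattle-yak replicate 2, yak replicate 1 or yak replicate 3 (0.129, 0.0662 and 0.0778). The germ cell factors LIN28A and NANOS2 did not pass the filter on low values.

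The mitotic cell cycle list was mixed, much as all tested genes were. Of its 26 tested members 14 were higher and 8 lower, with a median of 0.44. These shares lay near the 55.3% higher and 30.7% lower over all tested genes, whose median was 0.54. Members of the replication machinery were among the higher ones. The MCM helicase subunit MCM6 had 80.7, 124 and 89.96 FPKM in cattle-yak testes, against 31.4, 32.8 and 38.1 FPKM in yak testes, with all cattle-yak libraries above all yak libraries. MCM2, MCM3 and E2F1, which drives the genes of S phase, were higher by 1.72, 1.75 and 2.17. Genes of entry into division were among the lower ones. PLK1, a kinase of mitotic and meiotic division, had 7, 7.87 and 6.35 FPKM in cattle-yak testes, against 44.6, 35.2 and 40.4 FPKM in yak testes. CCNB2, a cyclin of the same step, had 25.6, 32.9 and 21.2 FPKM in cattle-yak, against 99.4, 92.95 and 94.5 FPKM in yak, and CDC20, which activates the anaphase-promoting complex, had 26.6, 27.5 and 14.9 FPKM in cattle-yak, against 99.5, 88.2 and 95.7 FPKM in yak. The groups did not overlap for these 3 genes. TOP2A, a topoisomerase, was called higher (0.49) but lay at −0.07, not called, with median-ratio scaling, and PCNA, the clamp of the replication fork, lower (−0.36), a call lost with quantile normalisation (−0.13) and with libraries scaled to equal sums (−0.23). With median-ratio scaling this list had 10 members higher and 10 lower, so its balance rests on the scaling.

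In meiotic prophase many levels lay close to those of the yak. The list of break formation and chromosome axis genes had 16 tested members, 3 higher, 6 lower and 7 not called, with a median of −0.05, and with median-ratio scaling it had 0 members higher and 9 lower. Single libraries moved these counts: 6 members were higher and 5 lower without cattle-yak replicate 3, and 1 was higher and 6 lower without cattle-yak replicate 2 or without yak replicate 2. HORMAD1, an axis protein that watches over synapsis, had 104, 114 and 63.5 FPKM in cattle-yak testes, against 71.3, 69.6 and 77.2 FPKM in yak testes. Cattle-yak replicate 3 lay below the yak libraries while replicates 1 and 2 lay above them, and the gene was not called (0.32 ± 0.19 (SE), limma, adjusted p = 0.136, 95% interval −0.10 to 0.74). SPATA22, which works with MEIOB on recombination intermediates, showed the same order with 116, 134 and 62.5 FPKM in cattle-yak, against 80.4, 71.1 and 87.6 FPKM in yak. Without cattle-yak replicate 3 both were called higher, at 0.57 and 0.64 (limma, adjusted p = 0.000684 and 0.00172). HORMAD1 was also called higher with quantile normalisation, at 0.573. SPO11, the enzyme that makes the breaks, had 8.703, 9.49 and 4.36 FPKM in cattle-yak, against 6.78, 5.74 and 7.604 FPKM in yak and was not called, with a 95% interval of −0.47 to 0.66. HORMAD2, the paralogue of HORMAD1, was lower with 36.9, 39.5 and 21.5 FPKM in cattle-yak, against 104, 99.8 and 84.99 FPKM in yak, as was TERB2, a telomere attachment protein, with 13.1, 14.2 and 7.63 FPKM in cattle-yak, against 50, 33.8 and 41.3 FPKM in yak. MEI1, needed for breaks in the mouse, was higher by 0.79, although its levels were at most 10.7 FPKM and it was not called with median-ratio scaling.

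Genes listed for the synaptonemal complex, the protein zipper between paired chromosomes, moved in both directions. Of 9 tested members 3 were higher, 3 lower and 3 not called; with median-ratio scaling there were 2 members higher and 5 lower, with a median of −0.41 in place of 0.13. TEX11, an X-linked gene of meiotic recombination in mammals rather than a structural subunit, was the most abundant in the hybrid with 167, 235 and 194 FPKM in cattle-yak testes, against 42.9, 40.6 and 51.6 FPKM in yak testes, a log2 fold change of 2.11 ± 0.14 (SE) (limma, adjusted p = 3.39e-07). SYCP3, of the lateral element, had 67.6, 114 and 91.3 FPKM in cattle-yak, against 21.8, 20.8 and 27.01 FPKM in yak. SYCP1, of the transverse filament, had 47.9, 68.5 and 42.9 FPKM in cattle-yak, against 39.03, 39.1 and 44.5 FPKM in yak. It was not called, with a 95% interval of −0.00022 to 0.69. SYCP1 was called higher without cattle-yak replicate 3, at 0.48, with libraries scaled to equal sums, at 0.483, and with quantile normalisation, at 0.435. The central element genes SYCE3 and SYCE1 were lower, with 40.6, 50.7 and 23.9 FPKM in cattle-yak, against 177, 160.2 and 148 FPKM in yak for SYCE3. For SYCE1 the values were 28.03, 25.9 and 15.2 FPKM in cattle-yak, against 113, 93.6 and 110.3 FPKM in yak. The libraries of the 2 groups did not overlap for TEX11, SYCP3, SYCE3 or SYCE1.

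Recombination genes were split in the same way. Among 25 tested members 11 were higher, 8 lower and 6 not called, with a median of 0.02; with median-ratio scaling there were 8 members higher and 12 lower. ZCWPW1, a reader of the histone marks laid at hotspots, had 70.1, 107 and 75.3 FPKM in cattle-yak testes, against 18.4, 18.2 and 22.6 FPKM in yak testes. The damage kinase ATM had 38.3, 34.9 and 32.6 FPKM in cattle-yak, against 13.4, 13.1 and 14.3 FPKM in yak, and H2AFX, the histone it phosphorylates, had 35.2, 49.2 and 39.5 FPKM in cattle-yak, against 11.1, 12.2 and 17.3 FPKM in yak. DMC1, the meiotic strand exchange protein, had 24.6, 53.2 and 25.8 FPKM in cattle-yak, against 35.9, 31.8 and 30.2 FPKM in yak and was not called (limma, adjusted p = 0.978, 95% interval −0.55 to 0.53); without cattle-yak replicate 2, the highest library, it was called lower, at −0.36. PRR19 and CNTD1, which act in crossover formation in the mouse, were lower, with log2 fold changes of −3.55 and −1.67. MND1, a partner of DMC1, had 25.5, 36.9 and 24.04 FPKM in cattle-yak, against 90.2, 86.8 and 81.4 FPKM in yak. PRR19 had 5.12, 5.79 and 2.39 FPKM in cattle-yak, against 66.2, 63.9 and 50.7 FPKM in yak, the furthest fall in the list.

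Genes of the meiotic divisions were mostly lower. Of 20 tested members 12 were lower and 6 higher, with a median of −0.64; with median-ratio scaling there were 2 members higher and 14 lower. CETN1, a centrin of testis, had 58.4, 42.4 and 11.8 FPKM in cattle-yak testes, against 838, 734 and 661 FPKM in yak testes, and the log2 fold change was −4.53 ± 0.44 (SE) (limma, adjusted p = 4.44e-06). CCNA1, the meiotic cyclin A without which mouse spermatocytes do not divide, had 9.06, 8.01 and 3.91 FPKM in cattle-yak testes, against 76, 61.3 and 77.9 FPKM in yak testes. PTTG1, the securin, had 121, 119 and 41.8 FPKM in cattle-yak, against 206, 169.8 and 193 FPKM in yak, a fall not called with quantile normalisation (limma, adjusted p = 0.0609). In all of these cattle-yak replicate 3 was the lowest library and the groups did not overlap. BOLL, a translational regulator of this step in flies, had 35.4, 43.5 and 30.8 FPKM in cattle-yak, against 87.6, 77.3 and 84.5 FPKM in yak, and NEK2, a centrosome kinase, had 31.2, 27.8 and 17.7 FPKM in cattle-yak, against 122, 111 and 116 FPKM in yak. Members called higher included PPP2R1A, the scaffold of protein phosphatase 2A, with 69.1, 76.95 and 94.6 FPKM in cattle-yak, against 16.99, 21.6 and 23.2 FPKM in yak. CCNB3, an X-linked cyclin of early meiosis, had 18.01, 22.1 and 23.2 FPKM in cattle-yak, against 2.35, 3.55 and 3.32 FPKM in yak, and ARPP19, an inhibitor of that phosphatase, had 128, 135 and 157 FPKM in cattle-yak, against 81, 89.5 and 86.7 FPKM in yak. ARPP19 was not called with median-ratio scaling, at 0.13.

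**Figure D3:**
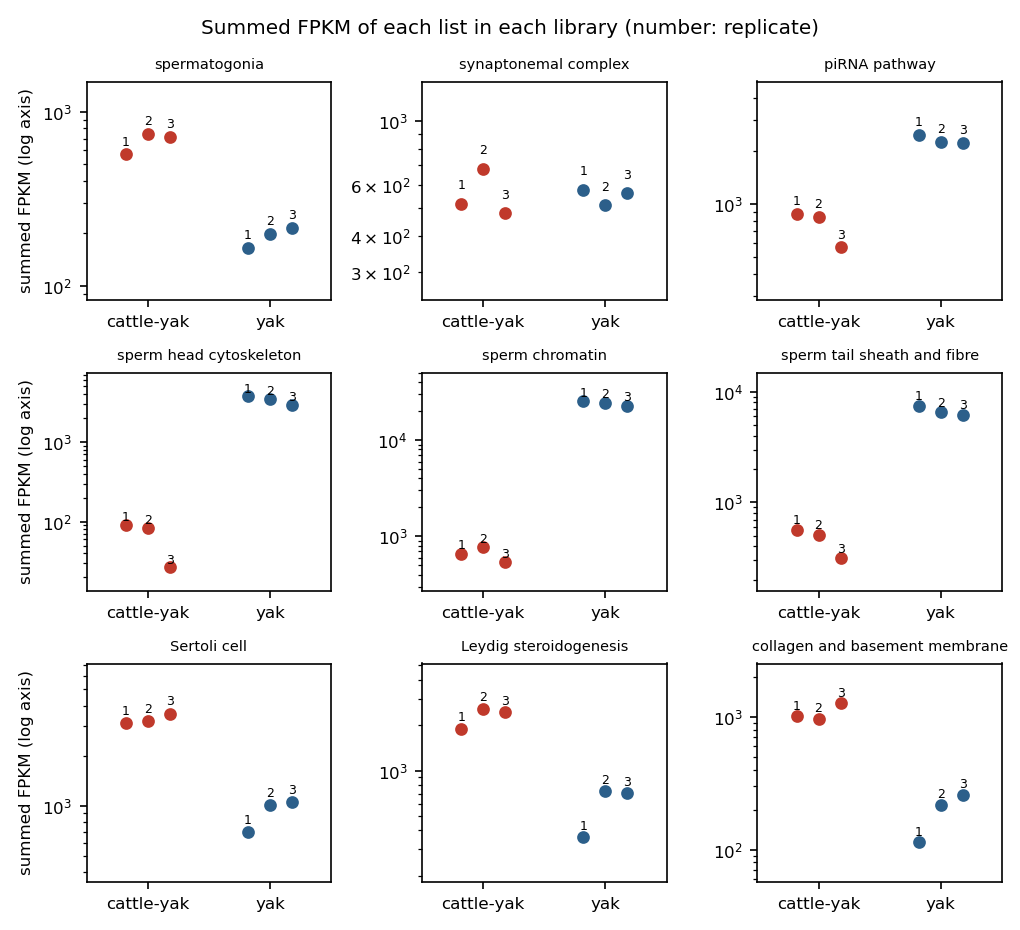
Summed FPKM (log axis) of the members of 9 gene lists found in the data, tested or not, in each library. Cattle-yak is in red on the left, yak in blue on the right, and the replicate number stands beside each point. Spermatogonial and somatic lists are higher in cattle-yak, the synaptonemal complex list overlaps with yak, and piRNA, sperm head, chromatin and tail lists are lower, with cattle-yak replicate 3 lowest.

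The piRNA pathway makes small RNAs that silence transposons in the germ line. Its list summed to 882, 849 and 570 FPKM in the cattle-yak libraries, against 2473, 2255 and 2226 FPKM in the yak libraries. Of 24 tested members 16 were lower and 6 higher, with a median of −1.06; with median-ratio scaling there were 2 members higher and 18 lower. PIWIL1, the PIWI protein of pachytene spermatocytes and round spermatids, had 54.7, 37.7 and 11.3 FPKM in cattle-yak testes, against 212, 183 and 187 FPKM in yak testes, a log2 fold change of −2.71 ± 0.43 (SE) (limma, adjusted p = 0.00014). PIWIL2, the PIWI protein of earlier germ cells, had 32.7, 34.99 and 32.4 FPKM in cattle-yak testes, against 18.5, 14.9 and 14.9 FPKM in yak testes, a log2 fold change of 1.01 ± 0.11 (SE) (limma, adjusted p = 1.12e-05). The groups did not overlap for either, in opposite directions. DDX25 (GRTH), an RNA helicase of spermatids, had 114, 108 and 49.95 FPKM in cattle-yak, against 520.4, 471 and 462 FPKM in yak, and GTSF1, a cofactor of PIWI proteins, had 71.2, 65.5 and 36.7 FPKM in cattle-yak, against 376, 362 and 306 FPKM in yak. DDX4 (VASA), an RNA helicase of the germ line, had 90.6, 96.5 and 59.9 FPKM in cattle-yak, against 242, 209 and 201 FPKM in yak. MYBL1, the transcription factor that switches on pachytene piRNA genes, had 13.4, 15.6 and 11.6 FPKM in cattle-yak, against 37.3, 33.9 and 34.5 FPKM in yak. MOV10L1, the helicase that feeds precursors into the pathway, had 28.9, 26.7 and 19.6 FPKM in cattle-yak, against 21.1, 21.6 and 23.5 FPKM in yak. It was not called, with a 95% interval of −0.15 to 0.47. Leaving out cattle-yak replicate 3 gave a call on the higher side, at 0.32, and median-ratio scaling a call on the lower side, at −0.39. BTBD18, which licenses transcription of piRNA genes in the mouse, was called higher, at 6.64, 8.31 and 6.35 FPKM in cattle-yak, against 1.16, 1.72 and 1.58 FPKM in yak. ASZ1, GPAT2, HENMT1 and TDRD3 were also called higher, by 0.45, 0.48, 0.38 and 0.67, but with median-ratio scaling ASZ1, GPAT2 and HENMT1 turned to the lower side and TDRD3 fell to 0.13, none of them called. HENMT1 was also not called without cattle-yak replicate 3 (0.30) or yak replicate 2 (0.29), and HENMT1 and GPAT2 were not called with quantile normalisation.

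Transcription regulators of late spermatocytes and spermatids were mostly lower. Of 21 tested members 16 were lower and 4 higher, with a median of −2.12; with median-ratio scaling there were 2 members higher and 17 lower. CREM, the activator of spermatid genes, had 17.5, 15.6 and 6.52 FPKM in cattle-yak testes, against 203, 183 and 176 FPKM in yak testes, a log2 fold change of −3.83 ± 0.28 (SE) (limma, adjusted p = 7.18e-07). FHL5 (ACT), its coactivator, had 0.363, 1.42 and 0 FPKM in cattle-yak testes, against 119, 91.9 and 87.1 FPKM in yak testes, and was listed at 0 in 1 hybrid. RFX2, a regulator of ciliary genes in spermatids, had 6.03, 5.26 and 1.51 FPKM in cattle-yak, against 56.7, 41.4 and 52.99 FPKM in yak, and SOX30, which acts at the start of the round spermatid programme in the mouse, had 6.203, 5.09 and 2.24 FPKM in cattle-yak, against 20.5, 19.1 and 16.5 FPKM in yak. The Y-box proteins that bind stored spermatid mRNA differed in size: YBX2 had 42.8, 32.3 and 9.82 FPKM in cattle-yak, against 393, 358 and 366 FPKM in yak, while YBX1 had 436, 434 and 378 FPKM in cattle-yak, against 1956, 1795 and 1666 FPKM in yak. In each of these the cattle-yak libraries lay below all yak libraries, and replicate 3 was the lowest. TAF7L and TAF4B, germ cell subunits of the general factor TFIID, were called higher. TAF7L had 83.2, 79.96 and 92.2 FPKM in cattle-yak, against 14.7, 23.3 and 27.2 FPKM in yak and TAF4B had 26.6, 24.4 and 25.05 FPKM in cattle-yak, against 5.03, 6.41 and 5.98 FPKM in yak. CNBP, a nucleic acid binding protein, had 241, 275 and 272 FPKM in cattle-yak, against 148, 149 and 168 FPKM in yak, and was not called with median-ratio scaling, at 0.19.

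Genes that repackage the sperm nucleus fell furthest. In sperm, histones are replaced by transition proteins and then by protamines. Of 16 tested members 14 were lower, 1 was higher and 1 was not called, with a median of −6.36; 2 passed the filter only through the parent libraries. PRM1 (ENSBTAG00000021493), a protamine, had 25.8, 41.3 and 5.29 FPKM in cattle-yak testes, against 14309, 13806 and 13588 FPKM in yak testes, and its log2 fold change was −9.49 ± 0.57 (SE) (limma, adjusted p = 1.96e-07). Of the transition proteins, TNP1 (ENSBTAG00000019003) had 12.9, 25.95 and 4.4 FPKM in cattle-yak testes, against 5223, 5032 and 4158 FPKM in yak testes. TNP2 (ENSBTAG00000032884) had 1.2, 4.97 and 0.889 FPKM in cattle-yak, against 986, 1036 and 918 FPKM in yak. The hybrids were far below the yaks and differed among themselves: replicate 2 was the highest and replicate 3 the lowest for all 3 genes. PRM2 (ENSBTAG00000032880), PRM3 (ENSBTAG00000013051) and HMGB4 (ENSBTAG00000000335), a high-mobility-group protein of spermatids, changed by −8.49 ± 0.33 (SE), −7.84 ± 0.31 (SE) and −7.68 ± 0.36 (SE). HILS1, a linker histone of spermatids, had 2.19, 3.98 and 1.08 FPKM in cattle-yak, against 553, 517 and 445 FPKM in yak. The testis-specific serine kinases TSSK1B, TSSK2, TSSK3, TSSK4 and TSSK6 and their substrate TSKS fell by 4.45 to 6.55 on the log2 scale, with at most 4.51 FPKM in any cattle-yak library. RNF8, a ubiquitin ligase of the histone exchange, had 31.3, 34.2 and 28.3 FPKM in cattle-yak, against 36.4, 37 and 35.2 FPKM in yak and was not called (95% interval −0.43 to 0.01); without cattle-yak replicate 2 it was called lower, at −0.27. H3F3B, which encodes the replacement histone H3.3, was the member called higher, with 561, 624 and 485 FPKM in cattle-yak, against 356, 367 and 387 FPKM in yak. With median-ratio scaling it was at 0.009 and not called (limma, adjusted p = 0.946), and the list had 0 members higher and 15 lower.

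Genes of the sperm head skeleton were lower without exception among those tested. All 21 members fell, with a median of −5.41, although 9 of them passed the filter only through the parent libraries and so had to differ. The list summed to 91.2, 82.5 and 26.6 FPKM in the cattle-yak libraries, against 3725, 3503 and 2943 FPKM in the yak libraries. SPEM1 (ENSBTAG00000020253), a protein of cytoplasm removal in the mouse, had 1.09, 0.918 and 0.136 FPKM in cattle-yak testes, against 285, 276 and 303 FPKM in yak testes. FAM209A had 5.72, 7.096 and 0.953 FPKM in cattle-yak, against 760.4, 704 and 526 FPKM in yak, and ACTL7B, an actin-like protein of the spermatid, had 6.88, 8.19 and 1.08 FPKM in cattle-yak, against 427, 434 and 329 FPKM in yak. CAPZA3, a capping protein subunit of the sperm head, had 1.49, 3.097 and 0.536 FPKM in cattle-yak, against 319, 275 and 219 FPKM in yak, and CCIN (calicin) had 1.805, 2.76 and 0.5803 FPKM in cattle-yak, against 204, 192 and 147 FPKM in yak. The values of 6 actin-related genes (ACTL7A, ACTL7B, ACTL9, ACTRT1, ACTRT2 and ACTRT3) were all under 10 FPKM in the hybrids. DPY19L2, which anchors the acrosome to the nucleus and whose loss gives round-headed sperm, fell less, with 25.2, 18.6 and 6.79 FPKM in cattle-yak, against 235, 196 and 212 FPKM in yak.

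Acrosome and fertilisation genes followed with a wider range. Of 28 tested members 25 were lower and 3 were not called, with a median of −3.84, and 8 passed only through the parent libraries. CRISP2, a cysteine-rich secretory protein of the acrosome, had 19, 14.4 and 5.02 FPKM in cattle-yak testes, against 1315, 1082 and 996 FPKM in yak testes, a log2 fold change of −6.52 ± 0.36 (SE) (limma, adjusted p = 1.04e-07). PLCZ1, the sperm factor that activates the egg, had 0.841, 1.01 and 0.222 FPKM in cattle-yak, against 114, 90.7 and 76.5 FPKM in yak. ACR, the protease acrosin, had 2.62, 3.17 and 0.863 FPKM in cattle-yak, against 54.6, 49.8 and 49.2 FPKM in yak, and IZUMO1, the fusion partner on sperm, had 0.495, 0.407 and 0.291 FPKM in cattle-yak, against 13.2, 13.7 and 9.57 FPKM in yak. A pair of chaperones of sperm surface proteins fell less. CLGN (calmegin) had 281, 243 and 173 FPKM in cattle-yak testes, against 1251, 1041 and 1156 FPKM in yak testes, and CALR3 (calsperin) had 29.1, 29.4 and 9.97 FPKM in cattle-yak, against 325, 286 and 274 FPKM in yak. TEX101, a surface protein of spermatocytes and later germ cells, had 72.8, 139 and 79.1 FPKM in cattle-yak, against 91.8, 96.2 and 103 FPKM in yak and was not called, with a 95% interval of −0.51 to 0.40; without cattle-yak replicate 2, its highest library, it was called lower, at −0.35. GOPC, a Golgi protein of general use, was not called either, with 35.5, 33.5 and 32.8 FPKM in cattle-yak, against 36.3, 38.6 and 32.5 FPKM in yak.

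Genes of the flagellum were lower across its parts. In the tail sheath and fibre list 31 of 32 tested members were lower, with a median of −4.19, and 3 passed only through the parent libraries. The list of axonemal dynein and radial spoke genes had 32 of 34 lower, with a median of −2.63. OAZ3 (ENSBTAG00000021591), an antizyme of spermatids, had 4.55, 7.02 and 1.09 FPKM in cattle-yak testes, against 906, 742 and 719 FPKM in yak testes, and SPA17, a protein of the fibrous sheath, had 126, 105 and 51.1 FPKM in cattle-yak, against 1059, 908 and 890.4 FPKM in yak. ROPN1 (ropporin) of the fibrous sheath had 15.6, 13.8 and 3.896 FPKM in cattle-yak, against 468, 453 and 402 FPKM in yak. AKAP4, the main anchor protein of that sheath, had 3.25, 3.23 and 0.825 FPKM in cattle-yak, against 227, 238 and 209.6 FPKM in yak, and ODF1 and ODF2 of the outer dense fibres had log2 fold changes of −6.14 and −3.12. SLC25A31, a germ cell ADP/ATP carrier, was the tail list member that was not called. It had 45.1, 46.8 and 31.4 FPKM in cattle-yak, against 40.1, 34.7 and 38.6 FPKM in yak. Leaving out cattle-yak replicate 3 gave a call on the higher side, at 0.28, and median-ratio scaling a call on the lower side, at −0.46. In the axoneme, the heavy chain DNAH8 had 5.25, 4.28 and 2.302 FPKM in cattle-yak, against 49.2, 42.1 and 42.5 FPKM in yak, and DNAH17 had 5.77, 3.83 and 1.33 FPKM in cattle-yak, against 40.8, 37.7 and 36.9 FPKM in yak. SPAG6, a central apparatus protein, had 23.5, 20.6 and 9.67 FPKM in cattle-yak, against 128, 120.4 and 126 FPKM in yak, and DYNLRB2, a dynein light chain, had 61.6, 45.2 and 25.3 FPKM in cattle-yak, against 128, 119 and 168 FPKM in yak. DNAL1 and DNAH11 were not called, with 95% intervals of −0.31 to 0.17 and 0.01 to 1.05. DNAH11 reached 14, 5.77 and 9.47 FPKM in cattle-yak, against 5.61, 6.49 and 6.102 FPKM in yak, with the groups overlapping, and was called higher without cattle-yak replicate 2, at 0.83, and with libraries scaled to equal sums.

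Ion channels and pumps of sperm were also lower. Of 19 tested members 17 were lower and 2 higher, with a median of −2.87, and 8 passed only through the parent libraries. CABYR, a calcium-binding protein of the tail, had 17.5, 19.9 and 7.56 FPKM in cattle-yak, against 203, 161 and 142 FPKM in yak. CATSPER3, a pore subunit of the sperm calcium channel, had 0.573, 0.5601 and 0.418 FPKM in cattle-yak, against 26.1, 26.97 and 22.3 FPKM in yak, and its auxiliary subunit CATSPERD had 9.37, 5.98 and 3.904 FPKM in cattle-yak, against 21.1, 17.95 and 19.8 FPKM in yak. ATP1A4, the sperm sodium pump, had 0.658, 0.7701 and 0.222 FPKM in cattle-yak, against 54.4, 55.2 and 48.7 FPKM in yak. ATP2B4, a calcium pump found in many tissues, and HVCN1, a proton channel also found in immune cells, were the members called higher, by 0.81 and 1.02. ATP2B4 was not called with median-ratio scaling, at 0.31.

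The 3 hybrids differed in the residual level of the genes that fell furthest. Among the 857 genes lower by at least 3 on the log2 scale, 719 had their lowest cattle-yak value in replicate 3, 84 in replicate 1 and 54 in replicate 2. Summed over these genes the level was 5450, 4870 and 2300 FPKM in cattle-yak, against 126000, 114000 and 108000 FPKM in yak. Without cattle-yak replicate 3, 11865 genes were called with limma, and the medians of the sperm chromatin, head, acrosome and tail lists were −6.08, −5.18, −3.58 and −4.12. On the yak side, replicate 1 had the lowest sums for Sertoli, Leydig, peritubular and matrix genes. Without it 11801 genes were called, and the medians of those lists were 1.69, 1.75, 1.76 and 1.73.

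Energy metabolism showed pairs of paralogues that moved apart. Spermatogenic cells use their own isozymes of glycolysis, many of them retained in sperm. Of 16 genes listed for germ cells 11 were lower and 2 higher (1 member higher and 14 lower with median-ratio scaling), with a median of −2.36, while of 15 listed for somatic cells 12 were higher and 2 lower, with a median of 1.93. GAPDHS, the sperm form of glyceraldehyde-3-phosphate dehydrogenase, had 3.94, 6.06 and 1.94 FPKM in cattle-yak testes, against 344, 309 and 281 FPKM in yak testes. GAPDH, the general form, had 423, 443 and 530.5 FPKM in cattle-yak testes, against 69.6, 101 and 103 FPKM in yak testes. The log2 fold changes were −6.05 ± 0.25 (SE) and 2.35 ± 0.18 (SE) (limma, adjusted p = 1.36e-08 and 9.27e-07), and the groups did not overlap for either gene. LDHC, the testis lactate dehydrogenase, had 95.9, 86.9 and 32.1 FPKM in cattle-yak, against 443, 334 and 418 FPKM in yak, while LDHB had 171, 183 and 226 FPKM in cattle-yak, against 33.1, 58.5 and 63.5 FPKM in yak. LDHA was lower like LDHC, with 51.6, 49.8 and 57.4 FPKM in cattle-yak, against 119, 108 and 131 FPKM in yak. PDHA2, the testis subunit of pyruvate dehydrogenase, had 12.6, 10.7 and 2.99 FPKM in cattle-yak, against 317, 292 and 277 FPKM in yak, and PDHA1, its X-linked counterpart, had 27.2, 27.1 and 29.9 FPKM in cattle-yak, against 3.19, 6.02 and 7.47 FPKM in yak. PGAM2, a phosphoglycerate mutase of muscle and testis, had 13.5, 11.8 and 3.93 FPKM in cattle-yak, against 246, 305 and 245 FPKM in yak, and PGAM1 had 128, 127 and 172 FPKM in cattle-yak, against 21.05, 36.6 and 36.7 FPKM in yak. PGK1, X-linked as well, had 75.6, 75.5 and 83.7 FPKM in cattle-yak, against 11.4, 16.7 and 20.1 FPKM in yak. ALDOA, TPI1 and ENO1 were not called, with 95% intervals of −0.35 to 0.14, −0.02 to 0.42 and −0.42 to 0.23.

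**Figure D4:**
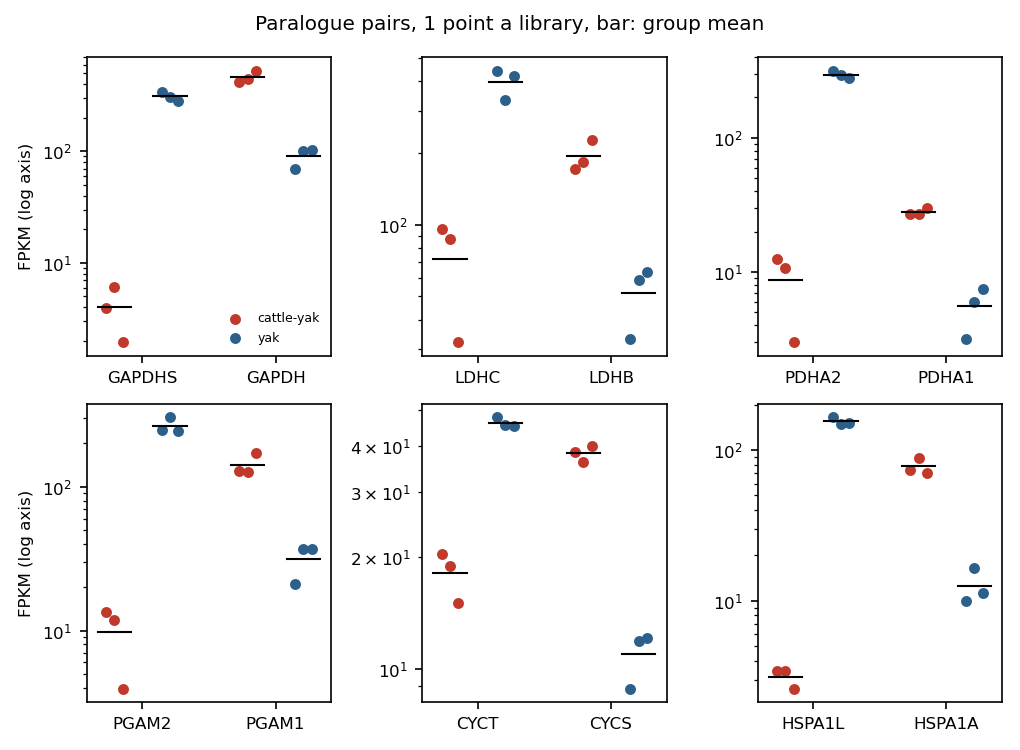
FPKM (log axis, a separate scale in each panel) of 6 pairs of paralogues, with 1 point for each library, cattle-yak in red left of yak in blue, and a bar at the group mean. In every pair the left gene was lower in all cattle-yak libraries than in any yak library, and the right gene was higher.

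The same opposition was seen beyond glycolysis, in pairs chosen after their values were seen. CYCT, the testis cytochrome c, had 20.4, 18.97 and 15.1 FPKM in cattle-yak, against 47.8, 45.6 and 45.1 FPKM in yak, and CYCS, the somatic form, had 38.4, 36.1 and 39.9 FPKM in cattle-yak, against 8.84, 11.9 and 12.1 FPKM in yak. HSPA1L, a heat shock protein of spermatids, had 3.402, 3.42 and 2.61 FPKM in cattle-yak, against 166, 148 and 151 FPKM in yak, and HSPA1A, the inducible form, had 73.8, 89.1 and 70.9 FPKM in cattle-yak, against 9.98, 16.4 and 11.2 FPKM in yak. In the proteasome, the testis subunit PSMA8 had 17.2, 17.4 and 8.18 FPKM in cattle-yak, against 36.9, 27.03 and 37.3 FPKM in yak, and PSMA7, which it replaces, had 82.02, 93.6 and 112 FPKM in cattle-yak, against 18.4, 27.7 and 30.3 FPKM in yak. The 2 groups did not overlap for any of these 6 genes. Reads of close paralogues may be split by the authors' counting, and its handling of them is not stated.

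Sertoli cell genes were higher in the hybrid. Of 27 tested members 25 were higher and none was lower, with a median of 1.95; with median-ratio scaling there were 25 members higher and 1 lower. The list summed to 3145, 3230 and 3574 FPKM in the cattle-yak libraries, against 694, 1010 and 1055 FPKM in the yak libraries. CLU (clusterin), a secreted chaperone, had 1080.5, 1214 and 1301 FPKM in cattle-yak testes, against 293, 358 and 339 FPKM in yak testes. FATE1, an X-linked testis gene, had 474, 514 and 525 FPKM in cattle-yak, against 162, 238 and 238 FPKM in yak, and PTGDS, a prostaglandin synthase, had 425, 390.0 and 448 FPKM in cattle-yak, against 56.8, 108 and 133 FPKM in yak. TF (transferrin), which carries iron to germ cells, had 129.8, 119 and 150.1 FPKM in cattle-yak testes, against 9.25, 19.5 and 20.3 FPKM in yak testes, a log2 fold change of 3.02 ± 0.25 (SE) (limma, adjusted p = 1.56e-06). CLDN11, a claudin of the blood-testis barrier, had 308, 305 and 332 FPKM in cattle-yak, against 51.2, 89.6 and 107 FPKM in yak, and GJA1 (connexin 43) had 115, 76.7 and 114 FPKM in cattle-yak, against 8.19, 17.2 and 18.2 FPKM in yak. The receptor of follicle-stimulating hormone, FSHR, had 22.9, 17.9 and 22.6 FPKM in cattle-yak, against 2.38, 5.21 and 6.51 FPKM in yak, and its feedback hormone subunit INHA had 189.6, 189.8 and 225 FPKM in cattle-yak, against 27.1, 53.1 and 58.4 FPKM in yak. AMH, the hormone of immature Sertoli cells, had 23.5, 21.2 and 31.02 FPKM in cattle-yak, against 2.96, 7.05 and 7.78 FPKM in yak, and KITLG, the ligand of KIT, had 35.1, 24.4 and 33.1 FPKM in cattle-yak, against 1.897, 5.12 and 4.58 FPKM in yak. OCLN (occludin) and AQP11 were not called, with 95% intervals of −1.08 to 0.08 and −0.06 to 0.91. AQP11 was called higher without cattle-yak replicate 3, at 0.64. OCLN was called lower in the fit of the 6 libraries alone, at −0.50, and with quantile normalisation, at −0.85. GDNF, the niche factor of stem cells, did not reach 1 FPKM in any library of either group.

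Genes that make, carry and sense retinoic acid, the signal of meiotic entry, changed unevenly. Of 17 tested members 13 were higher and 2 lower, with a median of 1.35; with median-ratio scaling there were 11 members higher and 4 lower. ALDH1A1, a retinaldehyde dehydrogenase, had 544, 821 and 1076 FPKM in cattle-yak testes, against 157, 305 and 272 FPKM in yak testes. ALDH1A2, a dehydrogenase found in germ cells in the mouse, moved the other way with 49.1, 42.5 and 35.1 FPKM in cattle-yak testes, against 130.2, 109 and 125 FPKM in yak testes. RDH11, a retinal reductase, had 19.8, 18.5 and 15.5 FPKM in cattle-yak, against 51.9, 43.7 and 55.8 FPKM in yak. The carrier CRABP2 stayed under 1 FPKM in every yak library, with 15.1, 11.9 and 18.6 FPKM in cattle-yak, against 0.9495, 0.0966 and 0 FPKM in yak. The receptors RARA and RXRA were higher by 1.07 and 2.19, and RARB was not called (95% interval −0.98 to 0.07). RARB was called lower in the fit of the 6 libraries alone, at −0.45, and with quantile normalisation, at −0.78.

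Leydig cell genes were higher, with a single exception. Of 18 tested members 17 were higher and 1 lower, with a median of 1.94. The list summed to 1904, 2576 and 2450 FPKM in the cattle-yak libraries, against 361, 727 and 710 FPKM in the yak libraries. LHCGR, the receptor of luteinising hormone, had 15.2, 36.9 and 28.9 FPKM in cattle-yak testes, against 2.13, 4.59 and 4.74 FPKM in yak testes. STAR (ENSBTAG00000033345), which brings cholesterol into mitochondria, had 123, 129 and 187 FPKM in cattle-yak testes, against 11.1, 11.3 and 15.5 FPKM in yak testes. CYP11A1, which starts its cleavage, had 39.3, 14.3 and 58.7 FPKM in cattle-yak testes, against 3.97, 5.74 and 7.31 FPKM in yak testes; replicate 2 was the lowest hybrid, still above all yaks. CYP17A1 (ENSBTAG00000014335), the enzyme that turns progestogens into androgens, had 172, 172 and 188 FPKM in cattle-yak testes, against 9.31, 19.8 and 14.7 FPKM in yak testes, a log2 fold change of 3.57 ± 0.24 (SE) (limma, adjusted p = 3.86e-07). HSD17B3, the last enzyme on the way to testosterone, had 60.8, 49.02 and 59.2 FPKM in cattle-yak, against 10.3, 19.98 and 19.3 FPKM in yak. INSL3, a peptide hormone of Leydig cells, had 1130.3, 1741 and 1451 FPKM in cattle-yak, against 214, 515 and 505 FPKM in yak. SRD5A1, a 5-alpha reductase, was the member called lower, at 5.72, 5.39 and 5.45 FPKM in cattle-yak, against 8.37, 8.204 and 7.64 FPKM in yak.

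The synthesis of cholesterol, from which androgens are made, split by enzyme. Of 28 tested members 19 were higher and 8 lower, with a median of 1.27. CYP51A1, which makes a meiosis-activating sterol, had 19.02, 20.4 and 18.9 FPKM in cattle-yak testes, against 123, 111 and 91.5 FPKM in yak testes. FDFT1 and FDPS, enzymes of the earlier steps, were lower, with log2 fold changes of −1.55 and −1.17. MSMO1 and SC5D, of later steps, were higher, with 101, 114 and 127 FPKM in cattle-yak, against 22.7, 26.8 and 32.4 FPKM in yak for MSMO1. SC5D had 23.1, 22.2 and 32.5 FPKM in cattle-yak, against 4.07, 5.43 and 6.63 FPKM in yak. The lipoproteins APOA1 and APOE were the most abundant members. APOA1 had 589, 598 and 584 FPKM in cattle-yak, against 59.7, 156 and 143 FPKM in yak, and APOE had 202, 300.0 and 365 FPKM in cattle-yak, against 18.9, 59.9 and 60.4 FPKM in yak.

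Listed genes of the tubule wall and of the matrix were mostly higher. In the peritubular smooth muscle list 12 of 13 tested members were higher and none was lower, with a median of 2.12. ACTA2, smooth muscle actin, had 98.4, 74.4 and 98.01 FPKM in cattle-yak, against 8.89, 22.8 and 28.9 FPKM in yak, and TAGLN (transgelin) had 98.1, 88.9 and 101 FPKM in cattle-yak, against 8.08, 22.4 and 24.4 FPKM in yak. TPM1, a tropomyosin, had 75.96, 83.03 and 95.8 FPKM in cattle-yak, against 11.4, 21.5 and 25.5 FPKM in yak, while TPM2 was not called (95% interval −0.11 to 0.47) except without cattle-yak replicate 2, at 0.31, by its most abundant transcript, at 1.07, and on the lower side with median-ratio scaling. Of 33 tested genes of collagen and basement membrane 31 were higher and 2 lower, with a median of 2.10. Over all 27 tested genes with the symbol prefix COL, 17 were higher and 8 lower, so the list left out collagens that fell. SPARC, a matrix glycoprotein, had 406, 473 and 633 FPKM in cattle-yak testes, against 48.4, 88.4 and 128 FPKM in yak testes. COL6A2, a chain of collagen VI, had 49.5, 58.4 and 71.2 FPKM in cattle-yak testes, against 2.77, 8.46 and 6.45 FPKM in yak testes, a log2 fold change of 3.22 ± 0.30 (SE) (limma, adjusted p = 3e-06). COL6A1 had 49.2, 67.9 and 78.5 FPKM in cattle-yak, against 5.29, 8.66 and 8.25 FPKM in yak and the fibrillar chain COL3A1 had 52.8, 31.1 and 52.1 FPKM in cattle-yak, against 4.13, 10.9 and 14.5 FPKM in yak. Every hybrid exceeded every yak for these 4 genes, and yak replicate 1 was the lowest. The basement membrane chains COL4A3, COL4A4 and COL4A5 were higher by 2.02, 2.15 and 2.63. NID2 and LAMA5 were lower, with 3.84, 4.32 and 4.94 FPKM in cattle-yak, against 10.2, 9.22 and 7.89 FPKM in yak for NID2.

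Growth factor and complement genes were mostly higher. In the list of hedgehog, Notch, transforming growth factor and insulin-like growth factor genes, 27 of 34 tested members were higher and 3 lower, with a median of 1.56. Of the tested members 4 passed the filter only through the cattle-yak libraries and 1 only through the parent libraries. With median-ratio scaling there were 26 members higher and 5 lower. IGFBP7 and IGFBP2, which bind insulin-like growth factors, led in level. IGFBP7 had 296, 279 and 383 FPKM in cattle-yak testes, against 23.3, 46.9 and 60.9 FPKM in yak testes, and IGFBP2 had 210.1, 233 and 247 FPKM in cattle-yak, against 18.7, 34.8 and 43.1 FPKM in yak. IGF2 had 54.9, 65.5 and 71.1 FPKM in cattle-yak, against 9.71, 18.9 and 15.7 FPKM in yak and IGF1 had 13.1, 11.6 and 19.4 FPKM in cattle-yak, against 0.593, 2.61 and 2.898 FPKM in yak, while their receptor IGF1R was lower with 27.9, 22.3 and 18.1 FPKM in cattle-yak, against 51.6, 49.3 and 45.2 FPKM in yak. IGFBP3 was lower too, at −0.89 on the log2 scale. The hedgehog target GLI1 was higher by 1.49, although it stayed under 3 FPKM, and its ligand from Sertoli cells, DHH, had 5.84, 5.02 and 4.86 FPKM in cattle-yak, against 0.643, 1.49 and 1.73 FPKM in yak. Of 21 tested complement and clotting genes 18 were higher and 3 lower, with a median of 1.97. C1S, a protease of the classical pathway, had 117, 123 and 132 FPKM in cattle-yak testes, against 6.19, 30.5 and 27.9 FPKM in yak testes. C7, of the terminal complex, had 25.4, 16.2 and 23.01 FPKM in cattle-yak, against 0.571, 2.93 and 1.48 FPKM in yak. CD59, a membrane inhibitor of complement abundant on sperm, was called lower with 51.4, 48.7 and 44.98 FPKM in cattle-yak, against 61.99, 67.4 and 56.04 FPKM in yak. That call was lost with quantile normalisation (limma, adjusted p = 0.114), with libraries scaled to equal sums (0.127) and without yak replicate 2 (0.0592).

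Genes of vessels and macrophages were mostly higher, those of lymphocytes and mast cells were mixed much as all tested genes were, and some markers went against their list. Of 12 tested endothelial genes 9 were higher and 2 lower. KDR, a receptor of vascular growth factor, had 9.36, 8.04 and 8.65 FPKM in cattle-yak, against 1.04, 2.301 and 3.36 FPKM in yak, while VWF, the clotting factor of endothelium, had 1.88, 1.48 and 1.75 FPKM in cattle-yak testes, against 12.1, 11.4 and 9.003 FPKM in yak testes. FLT1 was lower as well, with 1.99, 1.22 and 1.03 FPKM in cattle-yak, against 5.55, 3.11 and 5.02 FPKM in yak. Of 23 macrophage and antigen presentation genes 19 were higher and 2 lower, with a median of 1.43. B2M, the light chain of class I molecules, had 384, 661 and 513 FPKM in cattle-yak, against 47.01, 147 and 153 FPKM in yak, and the scavenger receptor MRC1 had 125, 105 and 112 FPKM in cattle-yak, against 20.1, 38.01 and 36.1 FPKM in yak. The complement starter genes C1QA, C1QB and C1QC were highest in cattle-yak replicate 2. C1QA had 16.6, 95.8 and 23.4 FPKM in cattle-yak, against 2.46, 5.83 and 12.4 FPKM in yak. AIF1, a marker of macrophages, had 4.66, 10.7 and 8.54 FPKM in cattle-yak testes, against 141, 138 and 114 FPKM in yak testes, and CD14 had 2.68, 1.63 and 1.07 FPKM in cattle-yak, against 11.2, 5.29 and 10.4 FPKM in yak. The BOLA entry of the list, a class I gene of a family of near-identical copies, had 73.5, 168 and 20.9 FPKM in cattle-yak, against 7.11, 43.9 and 21.9 FPKM in yak and was not called, although it was called higher without cattle-yak replicate 3, at 2.47. Of 13 lymphocyte and mast cell genes 8 were higher and 3 lower, with a median of 0.79. These shares lay near the 55.3% higher and 30.7% lower over all tested genes, whose median was 0.54. PTPRC (CD45) had 9.19, 13.2 and 13.4 FPKM in cattle-yak, against 1.53, 2.66 and 2.5 FPKM in yak, and IL7R had 2.61, 0.758 and 0.492 FPKM in cattle-yak, against 5.84, 7.28 and 8.803 FPKM in yak. The neutrophil gene S100A12 was lower with 0.848, 0.7996 and 0.517 FPKM in cattle-yak, against 44.98, 41.1 and 38.7 FPKM in yak, beside globins near 0. It passed the filter only through the parent libraries, so its separation partly follows from the filter. AHSP, a globin chaperone, was the other tested blood gene, lower with a log2 fold change of −1.27. Of 10 matched blood genes 8 were not tested. Of 5 tested genes of epididymis and rete testis 4 were higher, none was lower, and EPCAM was not called with 128, 139.7 and 99.9 FPKM in cattle-yak, against 141, 129 and 141 FPKM in yak.

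Ribosomal protein genes were moderately higher. Of 57 tested members 45 were higher and 1 was lower, with a median of 0.80, but with median-ratio scaling there were 23 members higher and 9 lower. RPLP1 had 1819, 2218 and 2198 FPKM in cattle-yak, against 1303, 1466 and 1542 FPKM in yak, and with median-ratio scaling it was not called, at −0.04. It was also not called without a filter (limma, adjusted p = 0.0682) or without cattle-yak replicate 2 (0.0517). RPS4X and RPL10, both X-linked in mammals, lay at the top of the list. X-linkage is given for some named genes only, and whether X-linked genes changed as a group was not tested. RPS4X had 278, 371 and 445 FPKM in cattle-yak testes, against 40.2, 82.6 and 64.9 FPKM in yak testes, a log2 fold change of 2.56 ± 0.24 (SE) (limma, adjusted p = 3.77e-06). RPL10 had 189, 261 and 284 FPKM in cattle-yak testes, against 37.97, 62.5 and 54.3 FPKM in yak testes, and its change was 2.23 ± 0.22 (SE). RPL35 was the member called lower, with 467, 512 and 525 FPKM in cattle-yak, against 825, 746 and 768 FPKM in yak. Many ribosomal protein genes have processed copies in mammalian genomes, so the values of single members are uncertain.

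Subunits of the respiratory chain and of the proteasome moved to both sides. Of 42 respiratory chain genes 17 were higher and 18 lower, with a median of 0.01, and with median-ratio scaling there were 12 members higher and 23 lower. ATP5F1A, of ATP synthase, had 443, 464 and 547 FPKM in cattle-yak testes, against 171, 167 and 203 FPKM in yak testes. COX7A2, of cytochrome oxidase, had 217, 199.6 and 200.4 FPKM in cattle-yak testes, against 744, 681 and 693 FPKM in yak testes. The testis subunit COX6B2 had 15.8, 15.4 and 5.53 FPKM in cattle-yak, against 79.6, 95.4 and 60.7 FPKM in yak, and SDHA, of complex II, had 97.8, 96.99 and 116 FPKM in cattle-yak, against 22.2, 27.6 and 27.9 FPKM in yak. Of 39 proteasome genes 24 were higher and 9 lower, with a median of 0.48, against 12 members higher and 14 lower with median-ratio scaling. The proteasome shares without that scaling lay near the 55.3% higher and 30.7% lower over all tested genes, whose median was 0.54. PSMA6, of the core ring, had 88.8, 94.03 and 91.9 FPKM in cattle-yak testes, against 470.2, 432 and 383 FPKM in yak testes. PSME3 and PSME4, activators of the core, had log2 fold changes of −2.28 and −0.99. The immune subunits PSMB8 and PSMB9 were higher by 2.35 and 2.15, with 76.4, 93.6 and 113 FPKM in cattle-yak, against 12.6, 26.4 and 24.8 FPKM in yak for PSMB9.

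Stress and cell death genes were mostly higher, and interferon genes by count but not by summed level. Of 21 apoptosis and damage response genes 16 were higher and 3 lower, with a median of 1.45. Of these 21 genes 2 passed the filter only through the cattle-yak libraries and 1 only through the parent libraries. With median-ratio scaling there were 15 members higher and 6 lower. CCNG1, a cyclin induced by DNA damage, had 183, 213 and 226 FPKM in cattle-yak testes, against 29, 46.1 and 39.6 FPKM in yak testes. MDM2, a ubiquitin ligase, CDKN1A, an inhibitor of the cell cycle, and BAX, which permeabilises mitochondria, were higher by 2.18, 1.72 and 1.94. BAK1, a relative of BAX, was lower with a log2 fold change of −0.52. In the stress list 14 of 18 tested members were higher and 2 lower, and 2 of the 18 passed only through the cattle-yak libraries. With median-ratio scaling there were 12 members higher and 5 lower. HSPA8, the constitutive heat shock protein, had 759, 848 and 827 FPKM in cattle-yak, against 126, 175 and 181 FPKM in yak. HSP90AA1 was called higher (0.40), but the call was lost in 10 of the alternatives: with median-ratio scaling, where it was at −0.18, with quantile normalisation (0.33), without a filter, in the fit of the 6 libraries alone, with the replicate number as a block, and without any single library other than cattle-yak replicate 3 (0.30 to 0.42). DNAJB1, a cochaperone, was lower with 86.4, 104 and 71.6 FPKM in cattle-yak, against 298, 258 and 257 FPKM in yak. Of 17 interferon genes 14 were higher and 2 lower, against 9 members higher and 3 lower with median-ratio scaling. The list summed to 184, 197 and 210 FPKM in cattle-yak, against 266, 273 and 244 FPKM in yak, so its total was lower in every hybrid. IFIH1, a sensor of double-stranded RNA, was lower with 4.64, 5.33 and 5.93 FPKM in cattle-yak, against 21.8, 25.5 and 21.9 FPKM in yak, and IFI6 was higher with 28.8, 55.6 and 32.5 FPKM in cattle-yak, against 0.953, 4.66 and 7.37 FPKM in yak. Among 14 housekeeping genes 11 were higher and 1 was lower, with a median of 1.66, against 0.54 over all genes; with median-ratio scaling there were 10 members higher and 3 lower. HPRT1, an X-linked enzyme of purine salvage, had 163, 206 and 221 FPKM in cattle-yak, against 29.8, 47.8 and 52.1 FPKM in yak. PPIA was not called, with 545, 617 and 614 FPKM in cattle-yak, against 679.9, 627 and 723 FPKM in yak (95% interval −0.47 to 0.08).

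Over all genes with a symbol, at least 20 FPKM in cattle-yak and no overlap, the 10 highest log2 fold changes included several secreted proteins. ASIP (ENSBTAG00000034077), the agouti antagonist of the melanocortin receptor, had 21.8, 32.3 and 44.5 FPKM in cattle-yak testes, against 0, 0.242 and 0.461 FPKM in yak testes, a log2 fold change of 4.74 ± 0.35 (SE) (limma, adjusted p = 8.01e-07). OTOS (ENSBTAG00000020592), otospiralin, had 84.8, 98.9 and 134 FPKM in cattle-yak testes, against 1.32, 5.98 and 10.4 FPKM in yak testes. ACSM1 (ENSBTAG00000001417), an acyl-CoA synthetase, had 32.2, 28.3 and 60.96 FPKM in cattle-yak, against 0.562, 3.43 and 1.03 FPKM in yak. The hybrids exceeded the yaks in each of these, and OTOS was lowest in yak replicate 1. RNASE4 (ENSBTAG00000019612) and ANG (ENSBTAG00000045492), secreted ribonucleases that share a locus in mammals and so may share reads, had log2 fold changes of 4.01 ± 0.36 (SE) and 3.93 ± 0.37 (SE). RNASE4 had 22.03, 60.1 and 34.3 FPKM in cattle-yak, against 0.551, 1.26 and 2.398 FPKM in yak, and cattle-yak replicate 2 was the highest for both. APOD (ENSBTAG00000023600), a lipocalin, A2M (ENSBTAG00000018137), a protease inhibitor, and P3H3 (ENSBTAG00000003598), a collagen prolyl hydroxylase, changed by 3.46 ± 0.44 (SE), 3.31 ± 0.34 (SE) and 3.23 ± 0.25 (SE). APOD had 102, 99.4 and 128 FPKM in cattle-yak, against 3.34, 14.2 and 14.3 FPKM in yak. With STAR and CYP17A1 these make up the 10 highest.

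The 10 lowest were PRM1, TNP1, PRM2, TNP2, PRM3, HMGB4, SPEM1, OAZ3 and the less described C25H16orf82 and TPPP2. C25H16orf82 (ENSBTAG00000020051) had 2.63, 2.68 and 0.539 FPKM in cattle-yak testes, against 647, 563 and 653 FPKM in yak testes. TPPP2 (ENSBTAG00000000328), a tubulin polymerization protein of sperm, had 1.402, 1.42 and 0.752 FPKM in cattle-yak testes, against 401, 319 and 399.7 FPKM in yak testes, a log2 fold change of −7.42 ± 0.17 (SE) (limma, adjusted p = 9.81e-10). Among genes called higher, the largest levels in cattle-yak were those of RPLP1, AARD, INSL3, SPINLW1 and RPS27. AARD had 1423, 1404 and 1677 FPKM in cattle-yak testes, against 229, 365 and 387 FPKM in yak testes. SPINLW1 (EPPIN), a protease inhibitor of Sertoli cells and sperm, had 1228, 1238 and 1517 FPKM in cattle-yak, against 192, 374 and 414 FPKM in yak. Among genes called lower, the largest levels in yak after PRM1 and TNP1 were those of YBX1, HSPB9 and GSTM3. HSPB9, a small heat shock protein of testis, had 86.3, 63.3 and 17.6 FPKM in cattle-yak testes, against 1764, 1632 and 1603 FPKM in yak testes. GSTM3, a glutathione transferase, had 1142, 1293 and 1391 FPKM in cattle-yak, against 1781, 1639 and 1667 FPKM in yak, a change of −0.41 ± 0.15 (SE) (limma, adjusted p = 0.0216). The call of GSTM3 was lost without a filter (limma, adjusted p = 0.111), with quantile normalisation (0.0971) and without cattle-yak replicate 1, cattle-yak replicate 2 or yak replicate 1 (0.0607, 0.0558 and 0.0578).

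The genes that were not called numbered 1975. For 1811 of them the 95% interval lay within 1 on the log2 scale, and for 1041 within 0.5. The most abundant included DEFB122A, RPLP2, SERF2, RPL35A, RPS25, PPIA, RPL37, RPL37A and RPS15A. DEFB122A, a beta-defensin, had 721, 759 and 949 FPKM in cattle-yak testes, against 234, 347 and 733 FPKM in yak testes, and the wide spread in yak left an interval of 0.01 to 2.07. It was called higher without yak replicate 3, at 1.49, and in the fit of the 6 libraries alone, with the replicate number as a block and with libraries scaled to equal sums. SERF2 had 685, 791 and 839 FPKM in cattle-yak, against 887, 836 and 899 FPKM in yak, with an interval of −0.49 to 0.12. RPS15A had 529, 641 and 602 FPKM in cattle-yak, against 708, 624 and 733 FPKM in yak, with an interval of −0.52 to 0.07. Those named here other than DEFB122A had intervals between −0.52 and 0.65, but most of them depended on the scaling. With median-ratio scaling RPS25, RPL35A and RPL37A turned to the lower side and were called there (limma, adjusted p = 0.0472, 0.011 and 0.0255). RPS15A, PPIA, SERF2 and RPLP2 were called lower there too, at −0.79, −0.76, −0.755 and −0.69 (limma, adjusted p = 0.000244, 0.000251, 0.000468 and 0.00177). RPL37 was called higher without cattle-yak replicate 1, at 0.44. With libraries scaled to equal sums RPL37 and RPS25 were called higher, at 0.436 and 0.365. Of the uncalled genes named with the lists above, ALDOA, ENO1, DNAL1, EPCAM, GOPC, OCLN, RARB, RNF8 and TEX101 were likewise called lower with median-ratio scaling, at −0.618 to −0.965.

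Some of the distance to yak was also a distance between the parent species. Between yak and cattle 2692 genes (19.1%) were called. At the cattle level were counted genes that differed from yak in the same direction in cattle-yak and in cattle, with cattle-yak and cattle not called apart and within 0.5 of each other. There were 500 such genes (3.55%), 266 higher (1.89%) and 234 lower (1.66%) than yak. Both comparisons share the yak libraries, so their values are given side by side. XCL1, a chemokine of lymphocytes, had 0, 0 and 0.706 FPKM in cattle-yak, against 11.96, 8.22 and 11.9 FPKM in yak, with 0.524, 0.0676 and 0.159 FPKM in cattle. KLRG1, a receptor of natural killer cells, had 0.197, 0.0828 and 0 FPKM in cattle-yak, against 10.2, 6.18 and 4.76 FPKM in yak, with 0.116, 0.408 and 0.2195 FPKM in cattle. KYAT1, a transaminase of the kynurenine pathway, had 13.7, 7.76 and 7.94 FPKM in cattle-yak, against 74.2, 87.1 and 39.7 FPKM in yak, with 2.88, 11.1 and 9.53 FPKM in cattle. In these genes yak stood apart from both others, as the definition of the cattle level requires. VWA5B2 and CES1, a carboxylesterase, had the same pattern, at 0.114, 0.0763 and 0.0943 FPKM in cattle-yak, against 6.27, 6.301 and 6.59 FPKM in yak for VWA5B2, with 0.139, 0.114 and 0.116 FPKM in cattle. XCL1, KLRG1, VWA5B2 and CES1 stayed under 1 FPKM in all cattle-yak and cattle libraries. They passed the filter only through the yak libraries, so their separation partly follows from the filter. In the other direction, ALDOC, an aldolase, had 12.3, 23.4 and 24.1 FPKM in cattle-yak, against 2.31, 3.62 and 3.69 FPKM in yak, with 19.8, 14.3 and 12.3 FPKM in cattle. OXT, the oxytocin precursor, had 5.93, 17.4 and 23.5 FPKM in cattle-yak, against 1.08, 0.446 and 1.35 FPKM in yak, with 10.2, 13.1 and 22.9 FPKM in cattle. PDXK, which makes the active form of vitamin B6, had 14.8, 19.6 and 24.6 FPKM in cattle-yak, against 3.99, 3.11 and 4.85 FPKM in yak, with 13.9, 14.3 and 16.4 FPKM in cattle. SMOC2 and GSTO1 were higher than yak by 2.08 and 2.09.

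**Figure D5:**
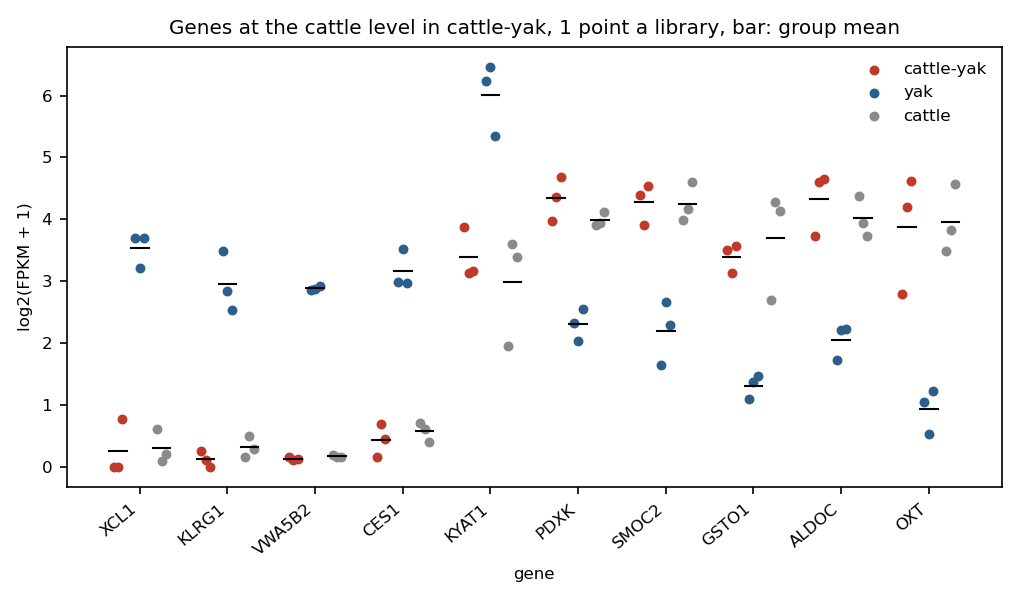
Log2(FPKM + 1) of the 5 lowest and 5 highest genes at the cattle level, with 1 point for each library, cattle-yak in red, yak in blue and cattle in grey from left to right, and bars at group means. Cattle-yak and cattle points lie together, and yak points lie above them for XCL1, KLRG1, VWA5B2, CES1 and KYAT1 and below them for PDXK, SMOC2, GSTO1, ALDOC and OXT.

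The sum over transcripts hid changes within genes. Of 628 genes with at least 2 transcripts tested, 79 had transcripts called in opposite directions, while 85.0% of all transcripts tested were called. COX4I1, a subunit of cytochrome oxidase, had a transcript (ENSBTAT00000053881) at 60.1, 48.1 and 16.8 FPKM in cattle-yak, against 384, 301 and 326 FPKM in yak. Its other transcript (ENSBTAT00000021397) had 72.2, 112 and 135 FPKM in cattle-yak, against 34.9, 52.3 and 48.6 FPKM in yak. The groups did not overlap for either, and the sum was lower, at −1.36 on the log2 scale. NASP, a chaperone of linker histones, was not called as a gene, with 197, 235 and 199 FPKM in cattle-yak, against 202, 173 and 193 FPKM in yak. Its transcript ENSBTAT00000020401 had 96.6, 87.6 and 71.6 FPKM in cattle-yak, against 181, 138 and 159.8 FPKM in yak. The transcript ENSBTAT00000057267 had 101, 148 and 127 FPKM in cattle-yak, against 20.8, 34.4 and 33.5 FPKM in yak. MFF, a mitochondrial fission factor, had a transcript (ENSBTAT00000054977) at −2.73 and a pair of others higher by 1.17 and 1.03 on the log2 scale. ATP5PF and IPO5, an importin, were the other 2 of the 5 most abundant such genes, with ATP5PF transcripts at 0.55 and −0.69. How the authors divided reads between transcripts of a gene is not stated.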

How the data were processed

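Testis RNA of 3 cattle-yaks and 3 yaks was compared, with 3 cattle in the same fit, and samples were grouped by the animal named in their title. The authors deposited FPKM for 22118 transcripts. The submitters' processing notes name HISAT2 (2.0.5), Trimmomatic, Bowtie, Cufflinks and StringTie (1.3.4), with the cattle build UMD3.1, and do not say which of them gave the FPKM. FPKM was summed per gene. Depth is unknown: of low values only 3.51 to 7.14% lay at the commonest ratio between libraries, which is too few to recover whole reads, and count tests were not used. In 74 genes a library was at 0 and another above 10 FPKM.

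A group-means model of log2(FPKM + 1) was fitted (limma 3.58.1, R 4.3.3), with empirical Bayes moderation with a trend, two-sided tests and Benjamini-Hochberg adjustment over 14091 genes. A call is an adjusted p under 0.05. The scripts were tested on simulated data. The pseudocount of 1 understates changes of low genes. Values are per replicate in the order 1, 2, 3.

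The members and the 36 gene lists were chosen with earlier results of these data known, so they give no independent support. Of 933 listed symbols 851 matched, 10 of them through an older symbol, and 789 were tested. Of those tested 40 passed the filter only through parent libraries and 17 only through cattle-yak. Lists above without a count of such members had at most 1 of each kind. Named were the 10 highest and 10 lowest called genes (no overlap, and a mean of 20 FPKM or more where higher), the 3 most abundant members of each list with those called against it, the 5 most abundant calls in each direction, 5 and 5 genes at the cattle level, the 10 most abundant uncalled genes and 5 genes with opposite transcripts. Some of these are not reported here, and other names were chosen after their values were seen. Another 21 columns, which hold circular RNA values, were not used. Alternatives were the pseudocount (0.1), the filter, the scaling, the libraries fitted, the variance trend, a single transcript per gene, the replicate number as a block and leaving out each replicate. Genes by chromosome and promoter motifs were not analysed here, so the X-linkage given for some named genes is background and not a result.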

Additional observations from a re-analysis of the deposited data

How the results depend on the processing

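The counts of genes called, called higher, called lower, called by at least 2-fold, at the cattle level and with opposite transcripts stayed within 1.5 times of the reported values under all alternatives that gave a value. Calls ranged from 11698 with median-ratio scaling to 13822 without a filter, and from 11801 to 11924 when 1 replicate was left out. Genes at the cattle level ranged from 372 without yak replicate 1 to 625 without a filter. The fit of the 6 libraries alone gives no cattle level, and the single most abundant transcript gives no opposite transcripts. With median-ratio scaling the estimates turned to the lower side for ASZ1 (−0.10), GPAT2 (−0.06), HENMT1 (−0.15), HSP90AA1 (−0.18), MEIOB (−0.48), MOV10L1 (−0.39), NASP (−0.42), RPL35A (−0.53), RPL37A (−0.46), RPLP1 (−0.043), RPS25 (−0.34), SLC25A31 (−0.46), TOP2A (−0.068), TPI1 (−0.37) and TPM2 (−0.36); by construction that scaling moves every gene down together, with the median of all genes at 0.06 in place of 0.54. Of these genes MEIOB, MOV10L1, NASP, RPL35A, RPL37A, RPS25, SLC25A31, TPI1 and TPM2 were called lower with median-ratio scaling. Other scalings gave calls on the higher side. TPI1 and NASP were called higher with quantile normalisation, at 0.56 and 0.48, and with libraries scaled to equal sums, at 0.33 and 0.29. RPS25 was called higher with libraries scaled to equal sums, at 0.365. NASP was at −0.90 with its most abundant transcript alone. FPKM carries no depth, so the precision of single low values is unknown.

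Same-numbered replicates of cattle-yak and yak deviated from their group means with correlations of 0.206, −0.172 and 0.226, so they share only a number. Neither replicate 2 nor replicate 3 of cattle-yak correlated best with its own number. With the replicate number as a block (replicate block) 12054 genes were called, 7764 higher and 4290 lower, with 446 at the cattle level.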

Other observations

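Genes were also grouped by the first letters of their symbol, a grouping chosen after the data were seen, for the 55 prefixes with at least 20 tested genes. Such a prefix holds genes of unlike function, and no test was made. Over all tested genes 55.3% were higher and 30.7% lower, with a median of 0.54. The lowest medians of the log2 fold change, cattle-yak minus yak, were those of SPATA (spermatogenesis-associated) genes, −3.63 with 19 of 23 lower and 2 higher, of TEX (testis-expressed) genes, −3.13 with 19 of 24 lower, and of CFAP (cilia- and flagella-associated) genes, −2.42 with 23 of 24 lower and none higher. CEP genes of the centrosome had 24 of 35 lower. The highest medians were those of COL genes, 1.58, and of RAB genes of vesicle traffic, 1.06. Of COL genes 17 of 27 were higher (63.0%) and 8 lower (29.6%), and of RAB genes 38 of 59 higher (64.4%) and 14 lower (23.7%). These shares lay near those over all tested genes. RNA-binding RBM genes had 27 of 37 higher and 2 lower. KIF genes of kinesin motors were split, with 13 of 35 higher and 15 lower.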
